A study of Mus musculus with 3 samples.

Results

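Among single cells dissociated from mouse dorsal root ganglia (DRGs), 421 of 9662 cells kept after filtering (4.36%) were glia with Pou3f1 and at least 2 of 5 markers. Sox4 is 1 of these markers. The cells are called Pou3f1 and Sox4 glia here, although Sox4 itself was not required. They were selected on measured values. Each had at least 1 unique molecular identifier (UMI, 1 counted RNA molecule) of Pou3f1, at least 2 of the 5 markers Sox4, Col27a1, Nkd1, Cdh10 and Map3k1, and at least 1 UMI of Ednrb or Egr3. Fabp7 had to stay under 0.5% of a cell's UMIs, Mag, Prx and Ncmap together at no more than 1 UMI, Snap25 and Rbfox3 together at no more than 1 UMI, and Pecam1 and Cdh5 at 0. The levels of these genes in the cells are therefore descriptions of the choice and not findings.

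The study asked how satellite glial cells (SGCs) respond after peripheral nerve injury. It profiled the L3 and L4 DRGs of C57BL/6J male mice aged 13 weeks, which were untreated (naïve) or had a spared nerve injury (SNI), in which branches of the sciatic nerve are cut, on both sides 7 or 14 days earlier. Each of the 3 libraries came from 8 DRGs pooled from 2 mice, and the whole ganglia were digested with collagenase and dispase, strained and captured with droplet 3′ chemistry. No library carried a transgene or a reporter, and there was 1 library per condition, so no difference between conditions had a replicate check and mouse, pool, dissociation and injury cannot be told apart. Intervals given here are exact 95% intervals that cover counting error only, and because the UMIs of 1 gene cluster in cells, the true spread was wider.

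SGCs wrap the cell bodies of sensory neurons in the DRG, whereas Schwann cells line the axons. Pou3f1 (also called Oct6 or SCIP) is a POU-domain transcription factor best known from Schwann cells about to myelinate, where it acts before Egr2 and the myelin genes come up. Sox4 is a SoxC transcription factor of progenitors and differentiating cells, Ednrb is the endothelin B receptor of the neural crest and its glia, and Egr3 is a zinc-finger factor of the immediate-early family.

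The naïve library held 162 Pou3f1 and Sox4 glia among 3152 kept cells (5.14%, Clopper-Pearson interval 4.39 to 5.97). The day 7 library held 108 among 2682 (4.03%, 3.31 to 4.84), and the day 14 library 151 among 3828 (3.94%, 3.35 to 4.61). The share was highest in the naïve library, and the intervals of all 3 libraries overlapped. Both injured libraries are set against the same naïve library. The ratio to naïve was 0.783 at day 7 (0.608 to 1.01) and 0.767 at day 14 (0.611 to 0.964), so that the interval at day 14 lay below 1 and that at day 7 did not. A cell had to yield several UMIs to meet the rule, and depth differed, with medians of 3072, 4010.5 and 4199 UMIs per kept cell in the naïve, day 7 and day 14 libraries. When the 1629, 1803 and 2685 cells with 3000 UMIs or more were thinned to 3000 UMIs each and the shallower cells were left out, the shares were 5.77%, 4.06% and 3.75%, so the naïve share was again the highest at equal depth. With cells holding a Sox10 UMI as the denominator, the shares were 8.62%, 7.04% and 6.82%.

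The Pou3f1 and Sox4 glia were somewhat deeper than the remaining cells, with medians of 4038, 4595.5 and 5096 UMIs and 2028.5, 2186.5 and 2352 genes in the naïve, day 7 and day 14 libraries. Their median mitochondrial share was 11.5%, 13.4% and 13.8%, against 9.73%, 10.5% and 11.3% in the other kept cells. A stricter filter of 1000 genes and 10% mitochondrial UMIs left 49, 6 and 12 of them. Libraries shared between 1 and 5 kept barcodes pairwise, none of them in these glia. A doublet caller marked 0.931% of kept cells, and 3 of these glia were among the marked cells.

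The members met the rule by different margins. Of the 5 markers, 2 were detected in 136 of the cells, 3 in 166, 4 in 93 and all 5 in 26. Pou3f1 itself was a single UMI in 101 of the cells and at least 5 UMIs in 179. Both Ednrb and Egr3 were detected in 267 of the cells, Ednrb alone in 149 and Egr3 alone in 5, so the endothelin receptor nearly always met that condition.

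Free RNA can place a UMI in a cell that does not make it, and vascular cells served as a measure of that background. A Pou3f1 UMI was present in 3.16%, 1.96% and 4.85% of vascular cells in the naïve, day 7 and day 14 libraries, whose median depths of 4353, 5084 and 5793 UMIs were above those of the glia. Sox10, the transcription factor of all neural crest glia, was not used by the rule and was detected in 88.9%, 91.7% and 92.1% of the Pou3f1 and Sox4 glia, against 4.56%, 3.92% and 5.15% of vascular cells. The cells were thus glial by a gene outside the rule.

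All genes below are given as CPM, a gene's share of the summed UMIs of a set of cells in a library scaled to 1000000, in the order naïve, day 7, day 14. Because the chemistry counts 3′ ends, each molecule counts once whatever the length of the transcript.

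Pou3f1, a single-exon gene at chr4:124656807-124660655 on the plus strand of mm10, stood at 1134, 915 and 760 CPM in the glia. The level was highest in naïve, at 0.81 of it at day 7 (0.73 to 0.89) and 0.67 at day 14 (0.61 to 0.74). The rule required a Pou3f1 UMI and the depth of the glia differed between libraries. These ratios therefore describe the chosen cells, and an effect of injury was not tested. In myelinating Schwann cells, gated by at least 3 UMIs of Mag, Prx and Ncmap and not on Pou3f1, Pou3f1 was at 616, 719 and 628 CPM. A gene annotated on the opposite strand, Gm2164, overlaps Pou3f1, and whether counting used strand is not given in the sources used here.

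Sox4 (chr13:28948919-28953713, minus strand) was at 641, 522 and 523 CPM in the glia, which put the 2 injured libraries at about the same level below naïve. As a marker of the rule, Sox4 also describes the chosen cells here. Egr3 and Ednrb cells without Pou3f1, which held a UMI of both genes and none of Pou3f1, met the same exclusions except that Fabp7 could reach 1% of UMIs in place of 0.5%. They had 232, 298 and 241 CPM of Sox4. Myelinating Schwann cells had 118, 125 and 126 CPM, so the order of the 3 sets was the same in every library.

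Among the other markers, Col27a1, a fibrillar collagen, was at 470, 540 and 447 CPM in the glia, but also at 546, 637 and 420 CPM in cells gated on Scn7a, a sodium channel of non-myelinating Schwann cells. Nkd1, a feedback inhibitor of Wnt signalling, was at 86.3, 115 and 99.2 CPM, and vascular cells held as much, at 155, 116 and 111 CPM. Neither gene set the glia apart from every other set. Cdh10, a type II cadherin, was at 69.7, 89.6 and 73.9 CPM in the glia, and Map3k1, a kinase upstream of the JNK and ERK cascades, at 221, 212 and 157 CPM.

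Ednrb was the most abundant of the rule's genes at 3034, 3381 and 2518 CPM, against 1503, 2391 and 2091 CPM in the Egr3 and Ednrb cells without Pou3f1. Egr3, which could also meet the rule, was at 614, 531 and 309 CPM, and its ratio to naïve at day 14 was 0.50 (0.44 to 0.58). The day 14 level was the lowest in 2 other sets as well, since Egr3 stood at 137, 65.5 and 58.0 CPM in Fabp7-high satellite glial cells, gated by Fabp7 at 1% of UMIs or more and no Pou3f1, and at 38.3, 24.6 and 19.2 CPM in myelinating Schwann cells. It was not the lowest in the Egr3 and Ednrb cells without Pou3f1, a set chosen on having an Egr3 UMI. Egr3 was at 388, 307 and 328 CPM there, lowest at day 7. Whether dissociation, which is known to induce immediate-early genes, had a part in the Egr3 level was not tested.

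**Figure D1:**
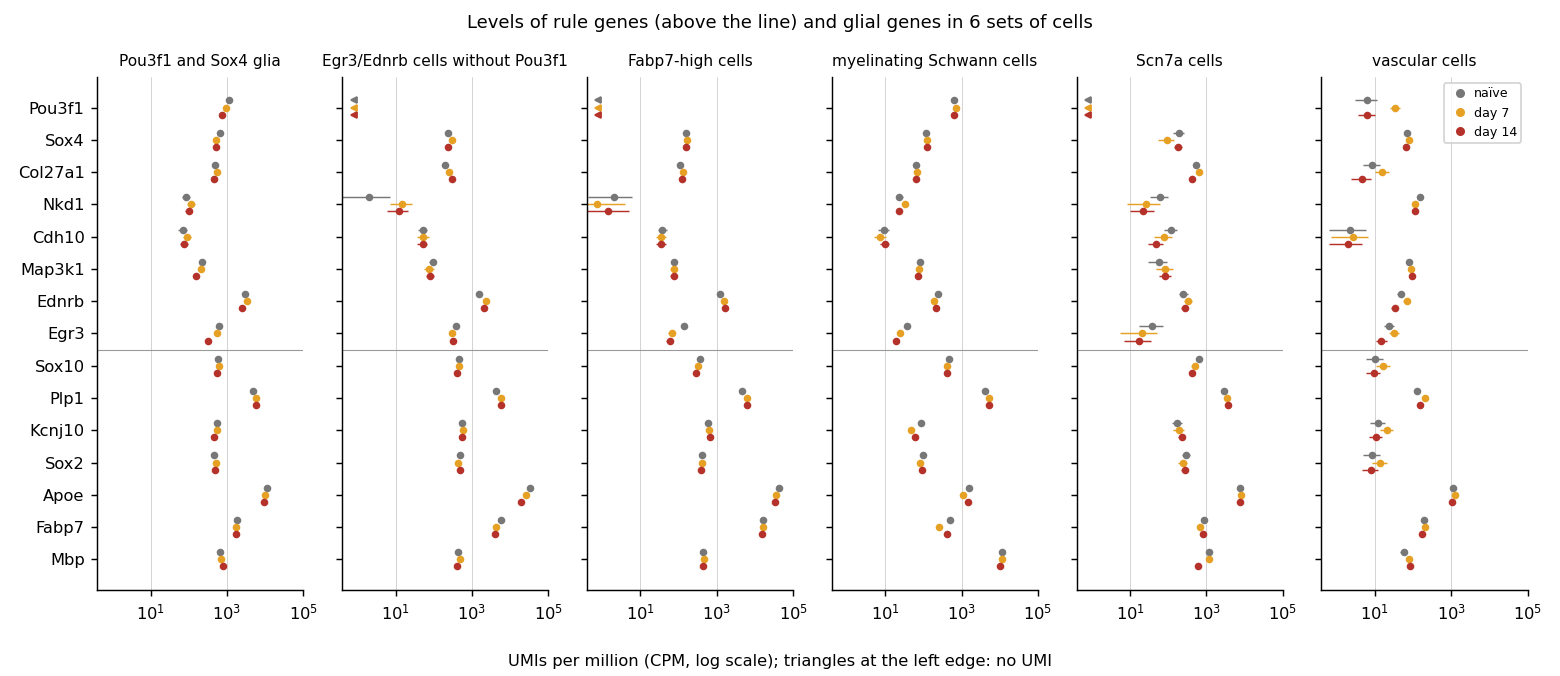
CPM (log axis) of the 8 rule genes above the line and of glial genes below it in 6 sets of cells, with grey for naïve, orange for day 7 and red for day 14, bars for exact 95% Poisson intervals and triangles for 0 UMIs. Sox10 was at 569, 623 and 545 CPM in the Pou3f1 and Sox4 glia and at 10.2, 16.5 and 9.29 CPM in vascular cells, and Mbp lay between its levels in the Egr3 and Ednrb cells and in myelinating Schwann cells.

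At the edges of the rule, 113, 153 and 221 cells of the naïve, day 7 and day 14 libraries met every condition except Pou3f1. These cells were fewer than the glia in naïve and more in both injured libraries, and they had 431, 364 and 334 CPM of Sox4. Just outside the limit on Fabp7, 32, 14 and 20 cells had 9288, 8383 and 9159 CPM of Fabp7 and 259, 293 and 132 CPM of Pou3f1. Just inside it, the 38, 23 and 32 glia with 0.25% to 0.5% Fabp7 had 620, 594 and 372 CPM of Pou3f1. Just outside the limit on Mag, Prx and Ncmap, 91, 92 and 117 cells had 4343, 5835 and 4280 CPM of Mbp, myelin basic protein. The 49, 28 and 52 glia with 1 such UMI had 888, 709 and 836 CPM of Mbp. Mbp was thus higher outside this limit than just inside it in every library.

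The glial identity of the cells was checked on lists of known markers. Some listed genes were used by the rule, namely Fabp7, the myelin genes Mag, Prx and Ncmap, Pou3f1 among the promyelin regulators, the vascular genes Pecam1 and Cdh5 and some genes of the family lists, and their levels follow from the choice. The label of the cells as immature-like was also checked in this way. All 8 satellite glial genes listed were detected in at least 20% of the 421 glia. Kcnj10, the inwardly rectifying potassium channel Kir4.1 of SGCs, was at 560, 555 and 455 CPM in the glia. It stood at 561, 583 and 546 CPM in the Egr3 and Ednrb cells without Pou3f1 and at 84.4, 47.9 and 59.7 CPM in myelinating Schwann cells. For this gene the glia were thus near the Egr3 and Ednrb cells. Summed over the 8 genes, the glia had 15001, 13243 and 12403 CPM. Fabp7-high satellite glial cells had 63580, 55900 and 53582 CPM, a sum that includes Fabp7, which set both gates. Apoe, Glul, Slc1a3, Gja1, Ptprz1 and Fabp7 were at least 2-fold lower in the glia than in those cells in every library. None of the 8 was higher.

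Other satellite glial genes were lower in the glia than in the Egr3 and Ednrb cells without Pou3f1. Apoe, the lipid carrier that is abundant in SGCs, was at 11337, 9714 and 9093 CPM, against 33474, 25453 and 19614 CPM. Glul, glutamine synthetase, was at 104, 102 and 164 CPM, against 642, 429 and 345 CPM. Over all genes, 0.673% were at least 2-fold lower in every library and 0.412% higher. Of the 8 genes of the list, Apoe, Glul and Fabp7 were lower and none was higher. These calls were lost at an equal Fabp7 limit. Against the 63, 57 and 77 of them with Fabp7 under 0.5%, none of the 8 genes was 2-fold apart in every library, with Apoe at 25204, 19645 and 15973 CPM and Glul at 340, 229 and 250.5 CPM in those cells. Against myelinating Schwann cells, 7 of the 8 were at least 2-fold higher in every library and Glul was lower. Over all genes, 8.74% were higher and 7.09% lower in that comparison.

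The immature Schwann list was at a similar summed level in the glia and in the Egr3 and Ednrb cells. Of its 12 genes, 9 were detected in at least 20% of the glia and Pax3 had 0 UMIs in them. Summed over the list, the level was 3004, 3150 and 3046 CPM in the glia and 3428, 3124 and 3142 CPM in the Egr3 and Ednrb cells without Pou3f1. None of the 9 genes compared was 2-fold apart. That is near the shares over all genes, which were 0.412% higher and 0.673% lower. Sox2, a transcription factor of immature and repair Schwann cells, was at 452, 502 and 486 CPM against 481, 443 and 498 CPM. Ncam1, an adhesion molecule lost on myelination, was at 985, 984 and 851 CPM against 1205, 1117 and 1055 CPM. Against myelinating Schwann cells, Sox2, Ncam1, L1cam and Notch1 were at least 2-fold higher in every library, a difference that the Egr3 and Ednrb cells shared. The names Pou3f1 and Sox4 follow from the rule that chose the cells. The word immature was left out of the name, as the summed level of this list was similar in the Egr3 and Ednrb cells.

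Of the regulators of the step to myelination, Pou3f1 was the one at least 2-fold higher than in the Egr3 and Ednrb cells without Pou3f1, by the choice of both sets, among 9 compared. Egr2, the zinc-finger factor that turns on the myelin genes, was at 30.7, 29.9 and 27.3 CPM in the glia and at 217, 279 and 275 CPM in myelinating Schwann cells. Zeb2, a repressor needed for Schwann cell maturation, was at 1292, 1559 and 1396 CPM in the glia, against 804, 1030 and 973 CPM in the Egr3 and Ednrb cells. Tead1, a transcriptional partner of Yap and Taz, was at 433, 464 and 448 CPM, against 203, 272 and 310 CPM. Both were higher in the glia in every library but did not reach 2-fold in each. Adgrg6, the adhesion receptor that starts myelination, was at 284, 377 and 364 CPM in the glia and at 127, 127 and 143 CPM in myelinating Schwann cells.

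Myelin genes were present at a low level. Mbp was at 670, 705 and 765 CPM in the glia and detected in 85.8%, 88.0% and 92.1% of them. Myelinating Schwann cells had 11350, 11344 and 10260 CPM, the Egr3 and Ednrb cells without Pou3f1 had 445, 502 and 405 CPM, and vascular cells, as a measure of free RNA, had 57.1, 77.3 and 85.2 CPM. The level in the glia was above that of the other satellite-like set and above that of vascular cells in each library. All 11 myelin genes reported, 3 of which set the gates, were at least 2-fold lower than in myelinating Schwann cells, and Prx was at least 2-fold higher than in the Egr3 and Ednrb cells, of 5 compared. Over all genes, 7.09% were lower in the former comparison and 0.412% higher in the latter.

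Levels of 2 genes linked to the SGC response to injury were low. Gfap, the intermediate filament of reactive astrocytes, had 9, 5 and 20 UMIs in the glia, or 10.6, 7.11 and 20.2 CPM with overlapping intervals. Serpina3n, a secreted protease inhibitor, was at 8.27, 14.2 and 38.5 CPM and was detected in 3.09%, 4.63% and 15.9% of the glia. In the Egr3 and Ednrb cells Serpina3n was at 37.8, 98.9 and 101 CPM, so the day 14 level was above naïve in both sets.

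Among the families around the rule's genes, no gene tested in the Notch list differed 2-fold from the Egr3 and Ednrb cells, of 6 compared. Nkd1, a rule gene, was the 1 of 4 Wnt feedback and target genes that did. Over all genes 0.412% were higher and 0.673% lower, so the absence of Notch calls was near that share. Lgr5, an R-spondin receptor, was at 188, 273 and 178 CPM against 201, 285 and 209 CPM, and Rnf43, Apcdd1 and Sp5 had 0 UMIs. The endothelin ligands Edn1, Edn2 and Edn3 had 0 UMIs in the glia, while Ece1, the enzyme that activates endothelins, was at 118, 139 and 146 CPM and Ednra, the other receptor, at 3.55, 2.84 and 2.02 CPM. The receptor Ednrb was thus present without its ligands in the same cells, at this depth, where 3 UMIs correspond to 3.55, 4.27 and 3.04 CPM. Of the 10 cell cycle genes listed, the mitotic genes Top2a, Cdk1 and Birc5 had 0 UMIs in the glia and Mki67 had 2, 0 and 3, whereas Pcna, the DNA polymerase clamp, was at 53.2, 64.0 and 63.8 CPM and the cyclin Ccnd1 at 374, 343 and 435 CPM.

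Markers of other cell types summed to less than in the other kept cells. The 8 vascular genes were at 21.3, 12.8 and 17.2 CPM, against 1455, 1417 and 1437 CPM, with Kcnj8, Pecam1 and Cdh5 at 0 and the latter pair excluded by the rule. The 7 neuronal genes summed to 65.0, 104 and 152 CPM, against 3058, 2860 and 3507 CPM in the other kept cells. The 6 fibroblast genes summed to 125, 110 and 220 CPM, against 1394, 1810 and 2721 CPM, with Pdgfra at 0.

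The 6 immune genes summed to 7.09, 44.1 and 133 CPM in the glia, against 150, 729 and 549 CPM in the other kept cells, with Cd3e at 0. The macrophage gene Lyz2 was at 4.73, 4.27 and 82.0 CPM and C1qa, a complement gene of the same cells, at 0, 15.6 and 31.4 CPM, and both were highest at day 14. These UMIs sat in few cells. Of the 131 immune UMIs at day 14, 73 were in 1 cell, which lay in the cluster led by Tmem119, Trem2 and Ctss, and 108 were in 2 cells. Of the 31 at day 7, 18 were in 1 cell of the cluster led by Cd209a, Napsa and Xcr1. No immune UMI was found in 156, 95 and 131 of the glia. Among these, the counts of genes 2-fold apart from naïve were 34 higher and 25 lower at day 7 and 32 and 45 at day 14, against 30, 21, 38 and 44 in all the glia.

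Across all genes, 19 of 4607 (0.412%) were at least 2-fold higher in the glia than in the Egr3 and Ednrb cells without Pou3f1 in every library, and 31 (0.673%) were at least 2-fold lower. These sets were gated on part of the same genes, so the counts describe the choice. With the comparison cells held to the same Fabp7 limit, which left fewer of them, 5 of 4238 genes were higher and 8 lower in every library. Outside the rule's genes, Kcna1, the voltage-gated potassium channel Kv1.1, was at 614, 858 and 885 CPM in the glia against 202, 248 and 317 CPM. Ank3, the scaffold protein ankyrin-G, was at 147, 181 and 256 CPM against 61.2, 57.6 and 78.8 CPM. Arhgap19, a GTPase-activating protein, was at 83.9, 65.4 and 47.6 CPM against 11.2, 1.48 and 13.3 CPM. Txnip, the thioredoxin-binding protein, was at 102, 128 and 182 CPM against 22.4, 57.6 and 83.2 CPM. Of these 4 genes, Arhgap19 stayed at least 2-fold higher in every library at the same Fabp7 limit.

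Among the genes lower in the glia, Sfrp5, a secreted Wnt antagonist, was at 66.2, 83.9 and 133 CPM in the glia against 873, 570 and 385 CPM, and the gap was narrower in the injured libraries. Slc4a4, a sodium bicarbonate cotransporter, was at 149, 206 and 188 CPM against 556, 615 and 598 CPM. Ctnnd2, a neural catenin, was at 52.0, 58.3 and 67.8 CPM against 330, 254 and 239 CPM. Vegfa, the vascular growth factor, was at 29.6, 9.96 and 19.2 CPM against 107, 70.8 and 75.4 CPM. The metallothionein Mt3, the glycoprotein Pdpn, the receptor subunit Cntfr and the monooxygenase Fmo1 were also at least 2-fold lower in every library. At the same Fabp7 limit Sfrp5, Ctnnd2, Vegfa and Fmo1 stayed so, while Slc4a4, Mt3, Pdpn and Cntfr did not in each library. The Egr3 and Ednrb cells of day 14 held 1427 CPM of the fibroblast list, and its part in that library's values was not tested.

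Against myelinating Schwann cells the contrast was wider. Of 3923 genes, 343 (8.74%) were at least 2-fold higher in the glia in every library and 278 (7.09%) at least 2-fold lower. Itgb3, the integrin beta3 subunit, was at 322, 284 and 254 CPM in the glia against 28.5, 15.9 and 16.0 CPM. Nlgn3, a neuroligin, was at 132, 132 and 137 CPM against 13.9, 9.87 and 12.2 CPM, and Wnt6, a secreted Wnt ligand, at 98.1, 101 and 96.1 CPM against 9.74, 8.46 and 9.39 CPM. Among the lower genes, Drp2, a dystrophin-related protein of the Schwann cell surface that binds Prx, was at 14.2, 5.69 and 13.2 CPM against 1094, 1098 and 1152 CPM. Otop1, a proton channel, had 0 UMIs in the glia and 122, 135 and 109 CPM in myelinating Schwann cells.

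The Pou3f1 and Sox4 glia did not form a cluster of their own. When all kept cells were clustered without the rule, 220 of the 421 (52.3%) fell in a cluster of 1057 cells led by 4930469K13Rik, Egr3 and Ednrb, and 123 (29.2%) in a cluster of 302 cells led by Pou3f1, Col27a1 and Egr3. Another 35 (8.31%) lay in a cluster led by the interferon-response genes Cxcl10, Ifit3b and Isg15, 18 in one led by Scn7a, 17 in one led by Tnc and Timp1 and 8 elsewhere. Since the clustering used the rule's genes, the differences below are descriptions.

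Within the glia, the pair of main clusters differed in some of the rule's genes in all 3 libraries. Over all genes compared between them, 41 of 4490 (0.913%) were at least 2-fold higher in the Pou3f1-led cluster in every library and 23 (0.512%) at least 2-fold lower. In the Pou3f1-led cluster, Pou3f1 was at 2191, 1839 and 1700 CPM, against 780, 687 and 636 CPM in the glia of the 4930469K13Rik-led cluster. Sox4 was at 1056, 828 and 1096 CPM against 516, 441 and 404 CPM. Map3k1 was at 394, 377 and 302 CPM against 159, 178 and 135 CPM. Of the 8 rule genes, Pou3f1 and Map3k1 were at least 2-fold higher in every library. Sox4, Col27a1, Nkd1 and Cdh10 were higher in each library, but by as little as 1.09 for Col27a1 at day 7 and 1.25 for Nkd1 at day 14. The ratio was 1.13, 0.87 and 0.98 for Ednrb and 0.90, 0.73 and 1.38 for Egr3, which did not lean to 1 side.

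Several satellite genes ran the other way. Apoe was at 3817, 4929 and 3529 CPM in the glia of the Pou3f1-led cluster and at 13861, 11402 and 10352 CPM in those of the 4930469K13Rik-led cluster. Fabp7 was at 719, 634 and 605 CPM against 2252, 2126 and 2049 CPM, and Bcan, the proteoglycan brevican, at 91.3, 73.6 and 67.2 CPM against 656, 491 and 427 CPM. Of 6 satellite glial genes compared, these 3 and Ptprz1 were at least 2-fold lower in every library in the Pou3f1-led cluster and none was higher, and the rule limits Fabp7. Hey2, a Notch-responsive repressor, was at 120, 166 and 141 CPM against 492, 414 and 325 CPM.

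Of 8 myelin genes compared, Cldn19, Pllp and Prx were at least 2-fold higher in the Pou3f1-led cluster in every library and none was lower. The calls of Pllp and Prx rested on few UMIs, and the rule limits Prx. The ratio of Pllp in naïve was 2.01 (0.77 to 4.99) and that of Prx at day 7 was 2.41 (0.74 to 6.94), so both intervals included 1. Cldn19, a tight-junction claudin of myelinating Schwann cells, was at 177, 230 and 188 CPM against 32.8, 30.5 and 29.8 CPM. Col1a2, a chain of type I collagen, was at 1267, 1416 and 1311 CPM against 545, 592 and 605 CPM. The shared glial genes lay close together: Sox10 was at 702, 717 and 591 CPM against 516, 634 and 564 CPM, and Kcnj10 at 474, 515 and 457 CPM against 576, 584 and 491 CPM. None of the 8 pan-glial genes was 2-fold apart.

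**Figure D2:**
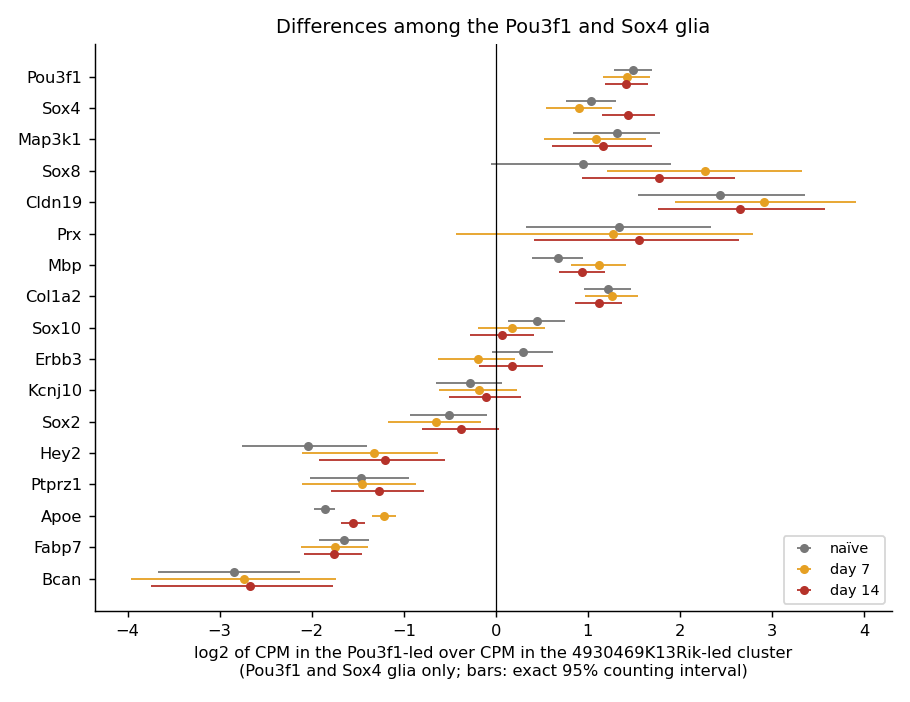
For each gene, the log2 ratio of CPM in the Pou3f1 and Sox4 glia of the Pou3f1-led cluster over those of the 4930469K13Rik-led cluster, in the naïve (grey), day 7 (orange) and day 14 (red) libraries, with exact 95% counting intervals. Pou3f1, Map3k1, Cldn19 and Prx lay right of 0 and Apoe, Fabp7, Bcan and Ptprz1 left of it in all 3 libraries, while Sox10 and Kcnj10 lay near 0. The interval of Prx at day 7 crossed 0.

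Injury was compared gene by gene as the log2 ratio of CPM plus 1 over naïve, for genes detected in 20% or more of the glia of either library. A gene counted as 2-fold apart only with that share in the library where it was higher. At day 7, 30 of 4848 genes tested (0.619%) were at least 2-fold higher and 21 (0.433%) at least 2-fold lower. At day 14, 38 of 4839 (0.785%) were at least 2-fold higher and 44 (0.909%) at least 2-fold lower. The median over all genes tested was close to 0 at both times, and 9 genes were higher and 9 lower at both times, which share the naïve library. The counts depended on the minimum share of cells and on which cells were taken, as given under the processing alternatives. Of the genes called, 26 of 30 and 19 of 21 at day 7 and 23 of 38 and 38 of 44 at day 14 were also 2-fold apart without the glia of the Scn7a-led and Tnc-led clusters.

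Fgl2, a fibrinogen-like protein with a secreted, immune-regulating form, had the largest ratio of the genes tested at day 7 and came after Tubb3 and Nrcam at day 14. It had 57, 141 and 213 UMIs in the glia, or 67.4, 201 and 216 CPM, and was detected in 21.0%, 30.6% and 40.4% of them. Both injured libraries were far above naïve, with log2 ratios of 1.56 (1.12 to 2.04) at day 7 and 1.66 (1.25 to 2.13) at day 14, against 0.70 and 0.58 in the other kept cells. In the glia of the Pou3f1-led cluster the ratios were 2.75 and 3.93, but they rested on few naïve UMIs and have no intervals. In the glia without an immune UMI they were 1.09 and 1.52, still at least 2-fold, whereas Acap2 (0.95), Ubap2 (0.91) and Sox13 (-0.99) at day 7 and Syvn1 (-0.69) at day 14 no longer reached 2-fold there.

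Epb41l4b, a FERM-domain protein, was at 42.6, 105 and 118 CPM and was detected in 17.3%, 37.0% and 44.4% of the glia. Its log2 ratios were 1.29 (0.71 to 1.92) and 1.45 (0.93 to 2.06). They were -0.02 and 0.13 in the other kept cells and 0.35 and 0.88 in the Egr3 and Ednrb cells without Pou3f1. Entpd2, an ectonucleotidase that breaks down extracellular ATP, was at 44.9, 104 and 139 CPM, with log2 ratios of 1.19 (0.62 to 1.81) and 1.60 (1.10 to 2.18) against 0.30 and 0.46 in the other kept cells. In the Egr3 and Ednrb cells without Pou3f1 the Entpd2 ratios were 0.74 and 0.95. They were 1.42 and 1.66 in the glia of the 4930469K13Rik-led cluster and -0.30 and -0.17 in those of the Pou3f1-led cluster. For Epb41l4b at day 7 the ratios in these clusters were 1.48 and -0.01. The Pou3f1-led values rested on few UMIs, above all for Entpd2, and have no intervals. A difference between the clusters was not tested. Sema3c, a secreted semaphorin, was at 27.2, 66.8 and 63.8 CPM. Its log2 ratios were 1.27 and 1.20, against 1.06 and 0.96 in the Egr3 and Ednrb cells without Pou3f1. Acap2, a regulator of the small GTPase Arf6, was at 27.2, 65.4 and 58.7 CPM. Ubap2 completed the genes named at both times, at 17.7, 38.4 and 40.5 CPM.

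Nr1d1, which encodes the circadian repressor Rev-erbα, was at 39.0, 101 and 118 CPM in the glia. Its log2 ratios of 1.35 and 1.58 went with ratios of 0.90 and 1.16 in the other kept cells, so the higher level was shared. The 8 clock genes summed to 344, 467 and 469 CPM in the glia and to 228, 343 and 381 CPM in the other kept cells. Arntl, the clock activator that Nr1d1 represses, was at 65.0, 49.8 and 29.3 CPM and at least 2-fold lower at day 14. The time of day of each dissection is not given in the sources used here, and its part was not tested.

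Of the genes lower at both times, Mpp6, a membrane scaffold, was at 56.7, 22.8 and 23.3 CPM, with log2 ratios of -1.28 (-2.23 to -0.48) and -1.25 (-2.07 to -0.54), and its ratios in the other kept cells were 0.41 and 0.00. Polr2i, a subunit of RNA polymerase II, was at 122, 54.0 and 54.6 CPM, Syvn1, a ubiquitin ligase of the endoplasmic reticulum, at 53.2, 24.2 and 25.3 CPM, and the transcription factor Sox13 at 46.1, 19.9 and 22.3 CPM. The last pair rested on 14 to 45 UMIs per library. Lurap1 was also lower at both times, at 49.6, 24.2 and 15.2 CPM. Among the genes of 1 time, the glucose transporter Slc2a1 had log2 ratios of 1.44 at day 7 and 0.73 at day 14, and Zkscan8 had 1.45 and 0.84. At day 14 both genes were under 2-fold and also missed the share of cells needed. Hivep1, Preb and Slc39a7 were at least 2-fold lower at day 7, with log2 ratios of -0.68, -0.29 and -0.76 at day 14. The secreted protein Lgi1 was at least 2-fold higher at day 14, at 29.6, 49.8 and 86.0 CPM, and Mrpl38 lower, at 54.4, 37.0 and 19.2 CPM. The difference between the 2 times was not tested for these genes.

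**Figure D3:**
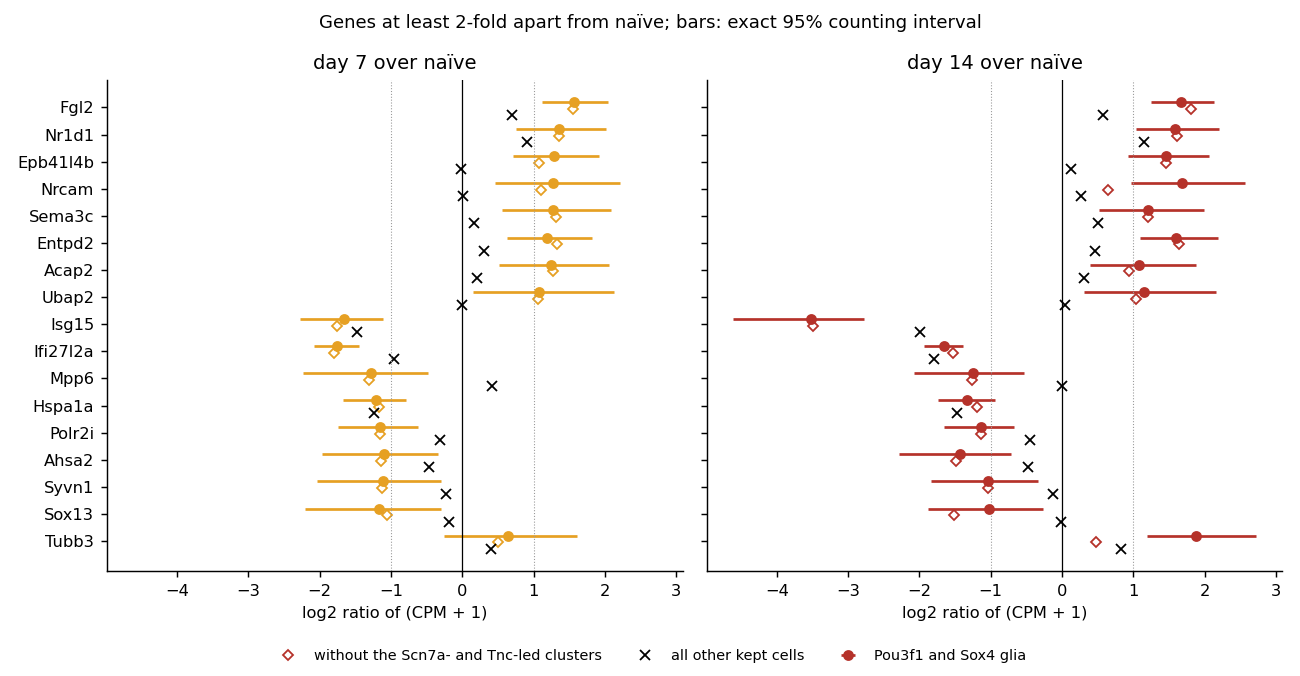
The log2 ratio of (CPM + 1) at day 7 (left) and day 14 (right) over naïve for genes at least 2-fold apart, with filled points and exact 95% counting intervals for the Pou3f1 and Sox4 glia, open diamonds for the glia without the Scn7a-led and Tnc-led clusters, and crosses for the other kept cells. Fgl2, Epb41l4b, Entpd2 and Nr1d1 lay right of the other kept cells at both times. Fgl2, Entpd2, Nr1d1, Isg15 and Hspa1a lay on the same side of 0 as the other kept cells.

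The interferon-response genes were among the lowest after injury. Isg15, a ubiquitin-like modifier induced by interferon, was at 150, 46.9 and 12.1 CPM, with log2 ratios of -1.66 and -3.52 in the glia and -1.48 and -2.00 in the other kept cells. Ifi27l2a, another interferon-induced gene, was at 496, 146 and 157 CPM, with log2 ratios of -1.75 and -1.66, against -0.95 and -1.79. Both genes were thus lower in the other kept cells of the injured libraries too. Glia of the Cxcl10- and Ifit3b-led cluster were 26, 6 and 3 of the Pou3f1 and Sox4 glia, or 16.0%, 5.56% and 1.99% of them, while that cluster held 159, 36 and 26 kept cells in all. Without them, the log2 ratios were -0.49 and -2.17 for Isg15 and -0.72 and -0.50 for Ifi27l2a, so that Isg15 at day 14 was the 1 of these 4 values still at least 2-fold lower. Leaving them out moved the ratio of the members' share to 0.88 at day 7 and 0.90 at day 14.

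Some heat-shock genes were at least 2-fold lower after injury. Hspa1a, the inducible Hsp70 chaperone, was at 200, 85.3 and 78.9 CPM, with log2 ratios of -1.22 and -1.33 in the glia and -1.24 and -1.48 in the other kept cells. A list of heat-shock genes was written after the values had been seen and holds Hspa1a, Ahsa2 and Hsph1, named here for their low levels. Values were available for 17 of its genes, and Hspb1, also listed, was not compared. Of 16 tested, 4 were at least 2-fold lower in the glia at day 7 and 5 at day 14. Over all genes tested, 0.433% and 0.909% were lower. As the list followed the values, its counts are descriptions only. The ratios of all 16 were below naïve at both times, in the glia and in the other kept cells. The median log2 ratio of the list was -0.70 and -0.81 in the glia and -0.38 and -0.35 in the other kept cells. Ahsa2, an activator of the chaperone Hsp90, at 59.1, 27.0 and 21.3 CPM, and Hsph1, at 96.9, 51.2 and 29.3 CPM, were among the genes at least 2-fold lower at day 14. Of 2 cold-inducible RNA-binding genes, listed in the same way, Cirbp was at least 2-fold higher at both times, at 46.1, 95.3 and 130 CPM, and Rbm3 at day 14, at 49.6, 76.8 and 110 CPM, with a log2 ratio of 0.62 at day 7. Handling temperature and dissociation cannot be told apart from injury with 1 library per condition.

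Of the immediate-early genes, Junb was at 46.1, 111 and 78.9 CPM and at least 2-fold higher at day 7. Jun was at 272, 363 and 369 CPM, with ratios of 1.33 (1.11 to 1.60) and 1.36 (1.15 to 1.61). Jun was also higher in myelinating Schwann cells, by ratios of 1.25 and 1.27, and lower in the Egr3 and Ednrb cells, by ratios of 0.75 and 0.74. Cdkn1a, the cell cycle inhibitor p21, was at 248, 185 and 118 CPM and was the 1 gene of its list at least 2-fold lower at day 14, with a ratio of 0.48 (0.38 to 0.60), while myelinating Schwann cells had 1398, 1291 and 1231 CPM. L1cam, an adhesion molecule of unmyelinated Schwann cells and axons, was at 83.9, 141 and 153 CPM, with ratios of 1.68 (1.22 to 2.31) and 1.82 (1.36 to 2.45). None of the immature Schwann, promyelin, myelin, satellite glial, Wnt, Notch or endothelin genes tested was 2-fold apart from naïve. Over all genes tested, the shares were 0.619% higher and 0.433% lower at day 7 and 0.785% and 0.909% at day 14.

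Some day 14 differences sat in few cells. The Tnc- and Timp1-led cluster held 2, 3 and 12 of the Pou3f1 and Sox4 glia, or 1.23%, 2.78% and 7.95% of them, and 9, 7 and 43 kept cells in all. Ngfr, the p75 neurotrophin receptor of immature, non-myelinating and repair Schwann cells, was at 23.6, 22.8 and 123 CPM in all the glia, a ratio of 5.22 (3.24 to 8.85) at day 14. Of the 122 Ngfr UMIs at day 14, 93 were in the 12 glia of that cluster, whose level was 1095 CPM. Without the Scn7a-led and Tnc-led clusters, Ngfr was at 21.6, 19.3 and 29.9 CPM, and its ratio at day 14 was 1.38 (0.73 to 2.68).

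Runx2 and Atf3, transcription factors of the Schwann cell response to injury, followed the same pattern. Runx2 was at 33.1, 22.8 and 108 CPM in all the glia. It was at 33.3 CPM at day 14 without these clusters, with a ratio of 1.03 (0.59 to 1.81), and at 918 CPM in the 12 glia. Atf3 was at 577 CPM in the 12 glia and had 9 UMIs in the 130 glia outside both clusters. Tubb3, a beta-tubulin of neurons, was at 22.5, 35.6 and 85.0 CPM in all the glia, with a log2 ratio of 1.87 at day 14 that was 0.48 without both clusters. Nrcam, a cell adhesion molecule of nodes and axons, was at 21.3, 52.6 and 70.8 CPM, and its log2 ratio at day 14 went from 1.69 to 0.65. Scn7a was at 43.7, 42.7 and 118 CPM and at 8.40, 14.8 and 19.5 CPM without both clusters.

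**Figure D4:**
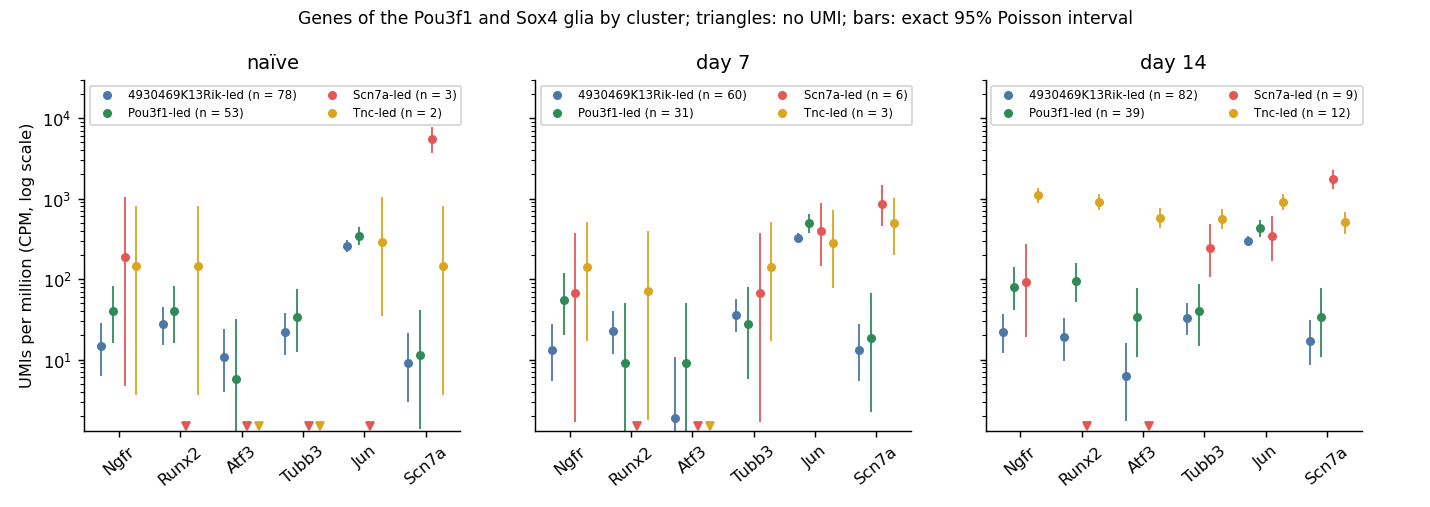
CPM (log axis) of Ngfr, Runx2, Atf3, Tubb3, Jun and Scn7a in the Pou3f1 and Sox4 glia of 4 clusters in the naïve, day 7 and day 14 libraries, with exact 95% Poisson intervals, triangles for 0 UMIs and the number of glia in the legends. At day 14 the 12 glia of the Tnc-led cluster had 1095 CPM of Ngfr, 918 of Runx2 and 577 of Atf3, above the glia of the 4930469K13Rik-led and Pou3f1-led clusters.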

How the data were processed

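Each library was deposited as 1 sparse matrix of UMI counts, genes by barcodes, made by the authors with Cell Ranger 3.0.2 on mm10 per the submitters' processing notes. Whole counts were not normalized and only called barcodes were listed (3748, 3281 and 4908). The annotation, the use of strand and any downsampling of reads are not given in the sources used here. Barcodes entered with 500 genes or more and a mitochondrial share of UMIs up to 20%. The members and gene lists were chosen with earlier results of these data known. For each library the counts of the members were summed, with totals of 845959, 703083 and 988207 UMIs, and divided by the total (CPM). With 1 library per condition no test was made, and called means at least 2-fold on CPM plus 1. Intervals are Clopper-Pearson for shares, exact Poisson for levels and exact conditional binomial for ratios. The calling rules were tested on simulated counts.

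Comparison cells were gated on the same kept barcodes. Fabp7-high satellite glial cells had Fabp7 at 1% of UMIs or more and no Pou3f1 UMI. Cells were clustered with scanpy 1.11.5 and leidenalg 0.10.2 under Python 3.11.15, with numpy 2.4.6, pandas 2.3.3 and scipy 1.17.1. Genes were named by a rule: the rule's genes, up to 4 of each list by level or label, the 8 highest and 8 lowest genes called at both times, the 6 highest and lowest at each time and the 10 highest and lowest against each comparison set, of which examples are given. Of 31053 gene IDs, 30934 matched GENCODE vM21, from which coordinates come. The authors' integrated cell object was not used here. A further gene of the myelin list is not reported here.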

Additional observations from a re-analysis of the deposited data

How the results depend on the processing

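Condition, pool, dissociation and depth cannot be told apart with 1 library each, and the mice of a pool cannot be separated. No paired analysis was possible because there was 1 library of each condition. The share of the glia stayed lower in both injured libraries under every alternative run, and 5 of its ratios to naïve lay outside the counting interval of the main ratio. Gene counts depended strongly on how many cells and UMIs a gene needed. The cause was not tested except where fewer cells or a looser filter follow from the alternative itself. Alternatives by cluster of the glia, without immune UMIs and with the stricter Fabp7 limit were chosen after seeing the data.

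At 1000 genes and 10% mitochondrial UMIs, which left 49, 6 and 12 of the glia, the share ratios were 0.152 at day 7 and 0.241 at day 14, 822 genes were higher and 1125 lower at day 7, and 859 and 872 at day 14, with log2 ratios at day 14 of -0.070 for Fgl2 and 0.32 for Sox13. With at least 2 Pou3f1 UMIs the day 14 ratio was 0.603. In the cluster with most of the glia, taken whole, the day 14 ratio was 0.985, 7 genes were higher and 3 lower at day 7, 13 and 12 at day 14, and Nrcam had log2 ratios of -0.12 and -0.13. In the glia of the Pou3f1-led cluster alone, the day 14 ratio was 0.606, 199 genes were higher and 247 lower at day 7, 252 and 219 at day 14, 70 and 181 against the Egr3 and Ednrb cells, and 167 were higher against myelinating Schwann cells. There Epb41l4b was at -0.012, Ubap2 at -0.30 and Entpd2 at -0.30 at day 7, and Entpd2 at -0.17 and Ifi27l2a at 0.055 at day 14. The Ubap2 and Entpd2 values rested on few UMIs. In all cells of that cluster 48 genes were higher and 40 lower at day 7, with Sema3c at -0.43 and -0.24, Entpd2 at -1.05 and -0.023, Acap2 at -0.71 at day 7, Ifi27l2a at 0.044 at day 14, and Sox13 at 0.072 and 0.64.

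With a pseudocount of 5, 14 genes were higher at day 7 and 27 lower at day 14. With detection in 10% of the glia or more, 155 and 122 genes were called at day 7 and 157 and 144 at day 14. With at least 3 UMIs and no minimum share, 628 and 597 were called at day 7 and 887 and 555 at day 14. With the mean of per-cell CPM, 46 and 45 were called at day 7 and 59 were higher at day 14. For the 16 genes named at both times, 371 of 448 values moved little, 60 moved and 17 reversed. With the Egr3 and Ednrb cells held to Fabp7 under 0.5%, 5 genes were higher and 8 lower in the glia.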
